A study of Rattus norvegicus with 6 samples.

Results

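The 48 genes described here encode the extracellular and membrane part of the WNT pathway, and were read in mammary tumors of older and younger F344 rats. They are the rows of the count table, 48 of 30562, whose gene symbols name a WNT ligand (18 genes), an R-spondin (4 genes), a frizzled, LRP or LGR receptor (15 genes), a secreted antagonist (10 genes) or the feedback gene Axin2. Another ligand gene of the table is not reported here. Bulk RNA-seq was available for 6 tumors, each a single library: tumors 102, 107 and 116 of 3 older rats, and tumors 157, 158 and 167 of 3 younger rats. All rats were of the inbred F344 strain and carried a subcutaneous 50 mg pellet of MPA (medroxyprogesterone acetate, a progestin) that released over 90 days, followed by 1 oral dose of DMBA (7,12-dimethylbenz[a]anthracene, a carcinogen) at 65 mg per kg. The older rats came from an aging colony and were 21 to 23 months old at the time of DMBA, and the younger rats were 4 months old. No tissue without tumor was part of the series, so that values compare tumors with tumors. The younger group holds every carcinoma that arose in younger rats, and the older tumors were those with enough tissue. A flash-frozen tumor piece contains stroma, vessels and immune cells next to carcinoma cells, and in such bulk RNA fewer cells of a type cannot be told apart from less RNA per cell.

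WNT ligands are secreted lipid-modified proteins that bind a frizzled receptor. Together with the co-receptors LRP5 and LRP6 they stop the breakdown of beta-catenin, which then enters the nucleus and turns on genes through TCF and LEF factors. Other WNT proteins, WNT5A and WNT5B among them, signal mainly through frizzled and ROR receptors without beta-catenin. R-spondins bind LGR receptors and keep frizzled proteins at the cell surface, whereas SFRP, WIF1 and Frzb proteins capture WNTs and DKK proteins occupy LRP5 and LRP6. In the mammary gland the pathway takes part in duct branching and in the upkeep of stem cells, and Wnt genes were found as targets of a mouse mammary tumor virus.

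The sequences before the start sites of 3 members are shown because Axin2 is the classic read-out of beta-catenin activity and because Fzd7 and Rspo1 were higher in all tumors from older rats. Each is the stretch of 250 bases before the start site in RefSeq on the GRCr8 build, plus strand, written 5′ to 3′ in lower case. Capitals mark the core letters of the TCF and LEF motif, CTTTGA, or TCAAAG where it lies on the opposite strand.
Axin2: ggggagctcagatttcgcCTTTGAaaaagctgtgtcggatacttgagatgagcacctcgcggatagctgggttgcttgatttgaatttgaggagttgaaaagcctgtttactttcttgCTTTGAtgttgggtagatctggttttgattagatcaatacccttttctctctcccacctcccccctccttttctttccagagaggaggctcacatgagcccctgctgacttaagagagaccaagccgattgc
Fzd7: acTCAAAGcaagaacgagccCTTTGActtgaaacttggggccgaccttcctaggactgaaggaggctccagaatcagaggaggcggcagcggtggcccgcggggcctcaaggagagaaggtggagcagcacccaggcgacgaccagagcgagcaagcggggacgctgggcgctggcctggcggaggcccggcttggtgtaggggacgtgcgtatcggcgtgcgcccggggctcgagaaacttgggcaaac
Rspo1: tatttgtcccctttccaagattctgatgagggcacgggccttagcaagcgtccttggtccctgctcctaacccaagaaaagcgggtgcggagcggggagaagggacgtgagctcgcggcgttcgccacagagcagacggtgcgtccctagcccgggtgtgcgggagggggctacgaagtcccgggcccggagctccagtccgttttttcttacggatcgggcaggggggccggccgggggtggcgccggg
The Axin2 stretch is chr10:94398535-94398784, and its motifs begin 232 and 132 bases before the start site. The Fzd7 stretch is chr9:68425288-68425537, with motifs that begin 248 and 230 bases before the start site, and the Rspo1 stretch is chr5:142536040-142536289, without these letters. Of the 32 members with such a stretch in the RefSeq table, 4 (Axin2, Fzd7, Dkk1 and Wnt8a) held the motif at least once, 12.5%, compared with 13.8% of 27457 stretches of all genes. Fzd7 and Axin2 were both highest in tumor 102, and so was Rspo1, which lacks the motif. Of the others with the motif, Dkk1 had 0 counts in every tumor, and Wnt8a had 2 counts in tumor 116 and 0 elsewhere. Tumor 102 held the highest value for 26% of all genes tested. A link between the motif and these levels was not tested.

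Totals ran from 3508571 to 6525830 counts per tumor, and 3 counts, taken as the floor of detection, correspond to 0.516 to 0.990 CPM (counts divided by the scaled library size), which covers counting error only. The age comparison used edgeR's quasi-likelihood test across the 14060 genes that passed its filter on low counts, with p adjusted by the Benjamini-Hochberg method over the whole set. Tumor 102 stood apart from the other libraries. Its mean correlation with the others was 0.83 across genes, compared with 0.869 to 0.900 for the other tumors, and it held the highest value of the 6 tumors for 26% of all genes tested and the lowest for 27.3%. Markers of mammary epithelium were present in every tumor, with Epcam between 289.7 and 479.7 CPM and Krt5 between 40.6 and 717 CPM. The floor was passed by 29 to 33 of the 48 members in each tumor, and 26 members passed the filter and were tested.

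Wnt5b, Rspo1 and Fzd7 were higher, and Sfrp1 and Wnt11 lower, in all 3 older tumors than in all 3 younger ones. The other members were not separated by age group. Rspo1 and Wnt11 had too few counts to be tested. Rspo1 was below the floor of 3 counts in all younger tumors and had 6 counts in older tumor 107. None of the 26 members passed an adjusted p of 0.05 in edgeR's test, as was the case for all genes tested (0% of 14060, 0 genes). At an unadjusted p under 0.05 there were 4 members: Wnt5b and Fzd7, higher in tumors from older rats, and Sfrp1 and Fzd3, lower in them. They make up 15.4% of the members tested, and the same threshold was passed by 8.55% of all genes, 5.28% higher and 3.26% lower in older tumors. In 3 of the 26 members tested (Wnt5b, Fzd7 and Sfrp1) all older tumors lay on the same side of all younger ones. This share of 11.5% is close to the 12.2% among all genes tested. DESeq2, which the study names for this comparison, passed 2 members, Wnt5b and Sfrp1, and 2.46% of all genes (346 genes). Wnt5b, counted in each of these, passed the filter on low counts only through the older tumors, where it is high. By sign alone, 11 of the members tested were higher and 15 lower in older tumors, with a median log2 fold change of -0.33, against -0.0031 over all genes tested. The lowest and the highest tumor were apart by a median of 2.03 on the log2 CPM scale for the members and by 1.22 for all genes tested, at median levels of 17.5 and 27.7 CPM. Tumor 102 held the highest value for 7 and the lowest for 9 of the 26 members, and tumor 157 held the highest for 7 and tumor 158 for 6.

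**Figure D1:**
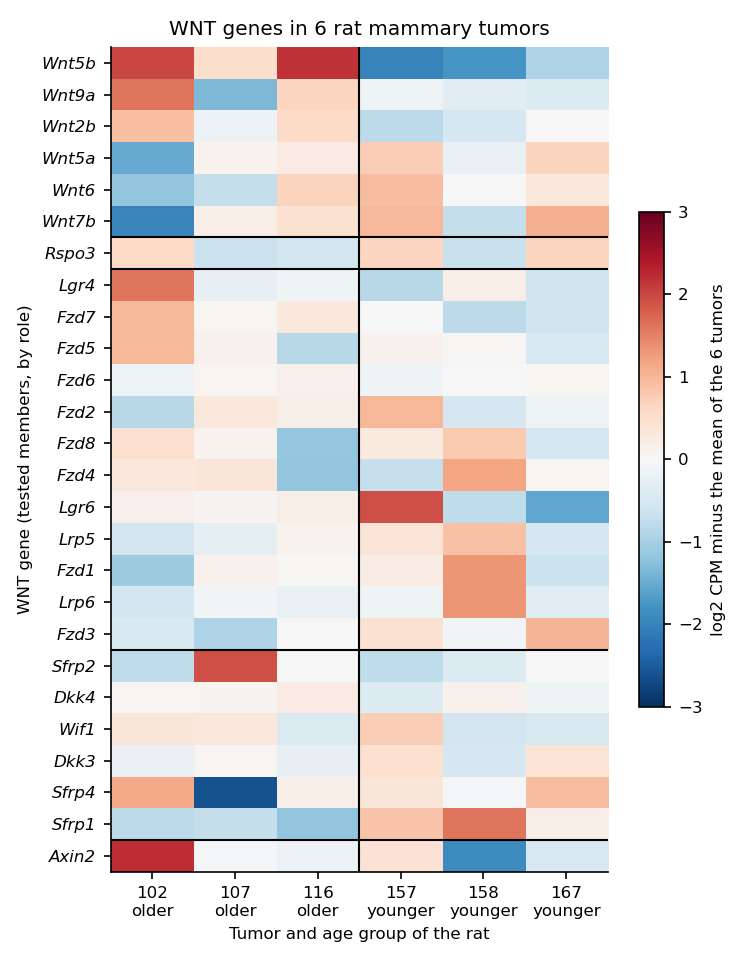
Heat map of the 26 tested WNT genes (rows, by role: ligands, the R-spondin Rspo3, receptors, antagonists, Axin2) in the 6 tumors (columns). Color gives log2 CPM minus the mean of the 6 tumors. Wnt5b is red in the 3 older tumors and blue in the 3 younger ones, Sfrp1 the reverse, and Axin2 and Lgr4 stand out in tumor 102.

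**Figure D2:**
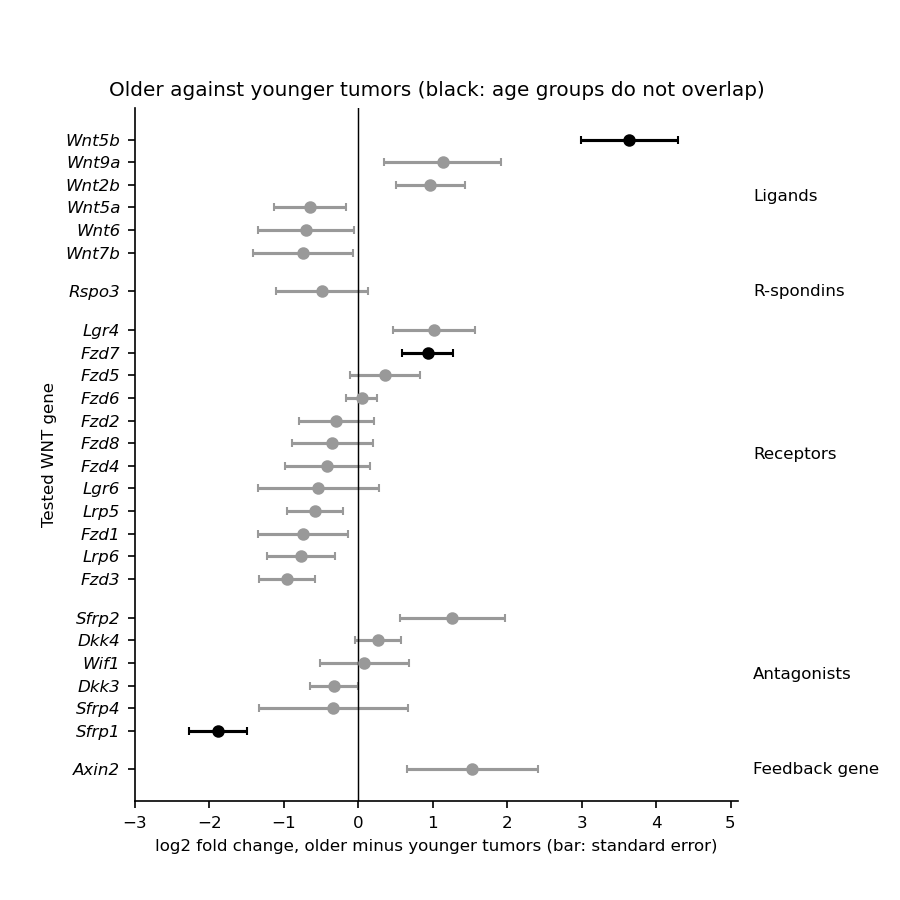
Log2 fold changes of the 26 tested members, older minus younger tumors, with standard errors as bars, by role. Black points mark Wnt5b (3.64), Fzd7 (0.93) and Sfrp1 (-1.89), whose age groups do not overlap, and grey points the other members.

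Among the ligands, 6 of 18 were tested, and Wnt5b showed the widest gap between the age groups. Wnt5b was at 17.5 (tumor 102), 5.93 (tumor 107) and 19.5 CPM (tumor 116) in older rats, and at 0.688 (tumor 157), 0.879 (tumor 158) and 1.90 CPM (tumor 167) in younger rats. The lowest older tumor thus lay above the highest younger one, with 27 to 101 counts against 4 to 8 counts. Wnt5b passed the filter on low counts only through the older tumors, so its test is not independent of its being high there. The fitted difference was 12.5-fold, or 3.64 on the log2 scale with a standard error (SE) of 0.65 (edgeR adjusted p = 0.218). The call depended on the test, since DESeq2 gave an adjusted p of 5.33e-05 and limma-voom 0.429. With a tumor left out in turn the log2 fold change stayed between 3.33 and 4.14. Wnt5b overlaps Fbxl14 in the RefSeq list, and the strand setting of the counting is not given in the sources used here. Fbxl14 itself had 220 to 241 raw counts in older and 174 to 234 raw counts in younger tumors, with overlap between the age groups. These counts are not scaled to library size, so they do not show that its level was equal. Tumor 102 had the highest count (241) and the smallest library total.

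Wnt5a, the close relative of Wnt5b, was at 9.90, 31.4 and 34.3 CPM in older tumors 102, 107 and 116 and at 48.5, 24.6 and 46.1 CPM in younger tumors 157, 158 and 167. The age groups overlapped, and the log2 fold change of -0.65 with an SE of 0.49 (edgeR adjusted p = 0.819) was -0.27 without tumor 102. Wnt7b, a ligand of the beta-catenin branch, had a similar order of tumors, with 4.95, 23.7 and 28.6 CPM in older tumors and 40.9, 12.5 and 43.7 CPM in younger ones. Tumor 102 was lowest for both genes, and without it the log2 fold change of Wnt7b moved from -0.74 to -0.30. Wnt2b, which also acts through beta-catenin, was at 11.5, 5.27 and 9.10 CPM in older and 3.27, 4.05 and 5.94 CPM in younger tumors. Here tumors 102 and 116 lay above all younger ones and tumor 107 below tumor 167 (log2 fold change 0.96, SE 0.46, edgeR adjusted p = 0.651, and 0.71 without tumor 102). Wnt9a was at 7.92, 0.658 and 3.87 CPM in older and at 1.66 to 2.06 CPM in younger tumors. Its log2 fold change of 1.13 (SE 0.79) fell to 0.32 without tumor 102. Wnt6 ranged from 0.990 to 4.65 CPM in older and from 2.81 to 5.67 CPM in younger tumors, with overlap (log2 fold change -0.70, and -0.37 without tumor 102).

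The 12 other ligands did not pass the filter on low counts. Of these, 7 (Wnt1, Wnt3, Wnt3a, Wnt7a, Wnt8a, Wnt9b and Wnt10b) had at most 2 counts in any tumor, below the floor. Wnt2 and Wnt10a each reached 3 counts in 1 tumor. Wnt8b had 8 counts in tumor 158 and 0 in the others, and Wnt16 had 5 counts in tumor 116 and 0 in the others. Wnt11, singled out after its values were seen, had 1, 3 and 1 counts in older tumors and 8, 6 and 9 counts in younger ones. This is a ratio of 0.268 (95% exact interval 0.0795 to 0.720, pooled counts, counting error only), and when every gene with at least 1 count was tested its adjusted p was 0.655 (edgeR). At this depth, neither presence nor a difference was detectable for most of these ligands.

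Apart from Rspo3, the R-spondins were low in younger tumors, and Rspo2 and Rspo4 were low in most older tumors too. Rspo1, which enhances WNT signals through LGR4, LGR5 and LGR6, had 67 (tumor 102), 6 (tumor 107) and 84 counts (tumor 116) in older rats and 2 (tumor 157), 1 (tumor 158) and 1 count (tumor 167) in younger rats. These correspond to 22.1, 1.32 and 16.3 CPM in older and 0.344, 0.176 and 0.237 CPM in younger tumors. All older tumors lay above all younger ones, but tumor 107 was far below the other older tumors. The pooled counts, 157 against 4, gave a ratio of 48.4 (95% exact interval 18.5 to 179.7, counting error only). This ratio was computed after the values were seen, and its interval does not measure the spread between tumors. Since only 2 libraries had enough counts, the gene did not pass edgeR's filter. Tested among all genes with at least 1 count, it had an adjusted p of 0.121 (edgeR). Rspo3 was at 5.28, 1.98 and 2.13 CPM in older and 5.50, 1.94 and 5.46 CPM in younger tumors, with overlap (log2 fold change -0.49, SE 0.62, edgeR adjusted p = 0.913). Its difference was -1.05 without tumor 102. Rspo4 reached 10 counts in tumor 116 and had 0 to 2 counts in the other tumors. Rspo2 had 0 to 3 counts.

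**Figure D3:**
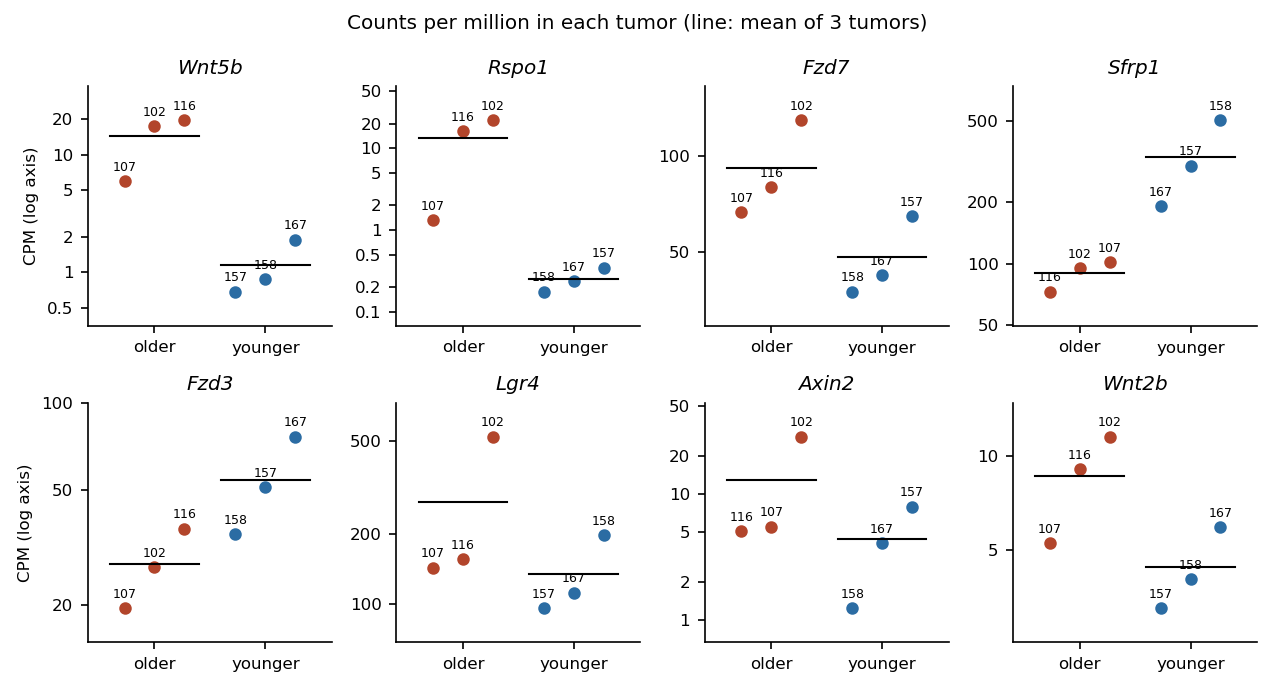
CPM of 8 members in each tumor on log axes, with older tumors in red, younger tumors in blue, tumor numbers above the points and the mean of 3 tumors as a line. Wnt5b, Rspo1, Fzd7 and Sfrp1 have age groups that do not overlap, whereas those of Fzd3, Lgr4, Axin2 and Wnt2b overlap.

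Among the 15 receptor genes 12 were tested, and 8 of the 12 were lower in older tumors by sign, with a median log2 fold change of -0.38. Fzd7, a receptor for ligands of the beta-catenin branch that is linked to stem cells in several epithelia, was at 129.6 (tumor 102), 66.7 (tumor 107) and 79.7 CPM (tumor 116) in older rats. In younger rats it was at 64.8 (tumor 157), 37.5 (tumor 158) and 42.3 CPM (tumor 167). The age groups were separated by the small gap between tumors 107 and 157, which closed when libraries were scaled by their totals alone. The log2 fold change was 0.93 with an SE of 0.34 (edgeR adjusted p = 0.489) and 0.60 without tumor 102. Fzd3, known for its part in planar polarity and axon guidance, was at 27.1, 19.5 and 36.8 CPM in older and 51.1, 35.2 and 76.2 CPM in younger tumors. Older tumor 116 lay just above younger tumor 158, and the log2 fold change was -0.96 with an SE of 0.37 (edgeR adjusted p = 0.52).

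Lgr4, a receptor for R-spondins, was at 523 CPM in tumor 102, against 144 and 156 CPM in older tumors 107 and 116 and 96.4, 198 and 112 CPM in younger tumors 157, 158 and 167. Its log2 fold change rested on tumor 102, with a value of 1.01 with an SE of 0.56 (edgeR adjusted p = 0.72), which was 0.14 without that tumor. The related Lgr6, a marker of epithelial stem cells in skin, was near 36.5 CPM in all older tumors (SD 1.20, n = 3). In younger tumors it was at 128, 19.3 and 10.9 CPM, so that tumor 157 held the highest and tumor 167 the lowest value of the series. Without tumor 157 its log2 fold change turned from -0.54 to 1.26. The co-receptor Lrp6 was at 164, 226 and 206 CPM in older tumors and 221, 599 and 191 CPM in younger ones. Tumor 158 alone lay outside the range of the others by a wide margin. Without it the log2 fold change of Lrp6 moved from -0.77 (SE 0.46) to -0.05. Lrp5 was at 91.4, 109 and 144 CPM in older and 176, 245 and 94.0 CPM in younger tumors, highest in tumor 158 as well (log2 fold change -0.58, edgeR adjusted p = 0.78). It was -0.23 without tumor 158 and -0.88 without tumor 167.

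Fzd6, a receptor that can restrain the beta-catenin branch, had the smallest range of the 26 members tested. It was between 91.0 and 111 CPM in all 6 tumors, with a log2 fold change of 0.05 (SE 0.21). The signs of Fzd2, Fzd4, Fzd5 and Fzd8 changed with 1 tumor left out. Fzd4, which also serves as the receptor of norrin in vessels, ranged from 11.8 to 35.1 CPM in older and from 16.7 to 62.4 CPM in younger tumors (log2 fold change -0.42, and -0.63 without tumor 102). The ranges of Fzd1, Fzd2, Fzd5 and Fzd8 overlapped between the age groups too, with log2 fold changes of -0.75 (Fzd1, -0.47 without tumor 102), -0.29 (Fzd2, -0.01 without it), 0.35 (Fzd5, -0.22 without it) and -0.35 (Fzd8, -0.72 without it), and adjusted p from 0.841 to 0.937 (edgeR). Fzd10 and Fzd9 had too few counts to be tested. Fzd10 had 29 counts in tumor 102 and 0 to 15 counts in the others, and Fzd9 had 0 to 13 counts.

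The antagonists were led by Sfrp1, an inhibitor with a frizzled-like domain whose loss is frequent in human breast cancer. It was at 95.3 (tumor 102), 102 (tumor 107) and 73.0 CPM (tumor 116) in older rats and at 302 (tumor 157), 505 (tumor 158) and 191 CPM (tumor 167) in younger rats. The age groups did not overlap, and the older tumors were close together. Levels in younger tumors were 3.70-fold higher (log2 fold change -1.89, SE 0.39, edgeR adjusted p = 0.256), DESeq2 gave an adjusted p of 0.00133 and limma-voom 0.359. Leaving out a tumor in turn gave log2 fold changes from -2.17 to -1.45, the latter without tumor 158. The age groups overlapped for the other SFRP genes tested. Sfrp2, often made by fibroblasts, was at 4.95, 34.7 and 8.71 CPM in older and 4.99, 6.51 and 8.79 CPM in younger tumors, and its log2 fold change of 1.26 (SE 0.71) was 0.03 without tumor 107 and 1.68 without tumor 102. Sfrp4 had 0 counts in tumor 107 and 12 to 19 counts in the other tumors (log2 fold change -0.34). With a tumor left out in turn its log2 fold change ran from -1.27 (without tumor 102) to 0.27, so that its sign changed.

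Of the DKK genes, Dkk3, a member of the family that does not act on LRP6 as the others do, was at 28.0, 33.6 and 27.3 CPM in older and 45.6, 22.5 and 43.5 CPM in younger tumors (log2 fold change -0.33, SE 0.32, edgeR adjusted p = 0.88). The fold change was -0.16 without tumor 157 and -0.58 without tumor 158. Dkk4 was between 13.9 and 15.7 CPM in older tumors and at 9.80, 14.4 and 12.1 CPM in younger tumors, a narrow range with overlap between the groups (log2 fold change 0.26, SE 0.31). Dkk1 had 0 counts in every tumor, which allows up to 0.516 CPM (tumor 157) to 0.990 CPM (tumor 102), depending on the library. Dkk2 was detected unevenly, with 22 counts in tumor 116, 17 in tumor 158, 11 in tumor 157 and 0 or 1 in the others. Wif1 had 7 to 26 counts, with a log2 fold change of 0.08 (SE 0.60). Frzb had 32 counts in tumor 116 and at most 7 elsewhere, and Sfrp5 had 1 to 6 counts.

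Axin2, which is switched on by beta-catenin and limits the signal, was at 28.4 (tumor 102), 5.49 (tumor 107) and 5.03 CPM (tumor 116) in older rats. In younger rats it was at 7.91 (tumor 157), 1.23 (tumor 158) and 4.04 CPM (tumor 167). The age groups overlapped, and tumors 102 and 158 lay at the ends of the range. The log2 fold change was 1.53 with an SE of 0.88 (edgeR adjusted p = 0.742), and 0.26 without tumor 102. Lgr5, another target of the pathway and a stem cell marker in intestine and mammary gland, had 2, 0 and 6 counts in older and 3, 1 and 1 counts in younger tumors. It was too low to be tested. Tumor 102 thus held the highest levels of Axin2, Lgr4, Fzd7, Wnt2b, Wnt9a and Rspo1, and the lowest of Wnt5a, Wnt7b, Lrp5 and Lrp6, among others. It was highest for 7 and lowest for 9 of the 26 members tested, compared with 26% and 27.3% of all genes tested. Tumor 116, with similar levels of Wnt5b and Rspo1, had Axin2 and Lgr4 within the range of the younger tumors.

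Beyond the members, 61 other genes of the pathway were examined, in lists for secretion, other receptors and planar polarity, membrane feedback and other inhibitors, the destruction complex, nuclear effectors and target genes. Of the 55 tested, 0 passed an adjusted p of 0.05 in edgeR's test and 8 had an unadjusted p under 0.05, 14.5% compared with 8.55% of all genes. Of these 8, 2 were higher (Apcdd1 and Prickle1) and 6 were lower in older tumors (Porcn, Vangl1, Sostdc1, Trabd2b, Pygo1 and Cd44). The age groups did not overlap for 10 of the 55, 18.2% compared with 12.2% of all genes. By list, the median log2 fold change ranged from -0.79 for the 2 secretion genes to 0.27 for 11 target genes.

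Apcdd1, a membrane inhibitor of WNT signals that is itself a target gene, was at 22.8, 8.56 and 25.7 CPM in older and 6.70, 3.34 and 4.27 CPM in younger tumors. All older tumors were higher, and tumors 102 and 116 were highest, as for Wnt5b and Rspo1. The log2 fold change was 1.98 with an SE of 0.52 (edgeR adjusted p = 0.327), and DESeq2 gave an adjusted p of 0.0238, its only call among the 55. In its list of membrane feedback and extracellular inhibitor genes, 3 of the 7 tested were higher by sign (Apcdd1, Rnf43 at 0.27 and Znrf3 at 0.31 on the log2 scale) and 4 lower. Trabd2b, a protease that inactivates WNT proteins, was at 6.93, 16.5 and 19.4 CPM in older and 56.4, 30.6 and 35.6 CPM in younger tumors (log2 fold change -1.51, SE 0.43, edgeR adjusted p = 0.356). Sostdc1, an antagonist of WNT and BMP signals, was at 0.330, 7.90 and 3.10 CPM in older and 16.8, 22.3 and 8.79 CPM in younger tumors. Its log2 fold change was -2.04 with an SE of 0.81 (edgeR adjusted p = 0.539).

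Porcn, the enzyme that attaches the lipid WNT proteins need for secretion, was at 5.28, 4.61 and 7.16 CPM in older and 11.0, 13.9 and 10.9 CPM in younger tumors (log2 fold change -1.06, SE 0.36, edgeR adjusted p = 0.437). Of the planar polarity genes, Vangl1 was at 30.7 to 45.9 CPM in older and 51.5 to 98.7 CPM in younger tumors. Prickle1 was at 84.8, 26.8 and 68.1 CPM in older and 22.5, 32.0 and 16.4 CPM in younger tumors, with overlap between tumors 107 and 158. In the cytoplasm, Ctnnb1, which encodes beta-catenin itself, was at 562, 571 and 523 CPM in older and 856, 760.4 and 677 CPM in younger tumors. The groups did not overlap, yet the log2 fold change was small at -0.47 with an SE of 0.26 (edgeR adjusted p = 0.72). Csnk1a1, a kinase that marks beta-catenin for breakdown, was at 475 to 630.2 CPM in older and 647 to 895 CPM in younger tumors. In the nucleus, the coactivator gene Pygo1 was at 3.95 to 5.81 CPM in older and 7.22 to 16.9 CPM in younger tumors, and Tcf7, a transcription factor also abundant in T cells, at 14.2, 35.1 and 17.6 CPM in older and 6.51 to 13.8 CPM in younger tumors. Cd44, a target gene, was at 84.0 to 131 CPM in older and 155 to 187 CPM in younger tumors. Among the target genes Sp5 and Notum, which depend closely on beta-catenin in other tissues, had at most 2 counts in any tumor.

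**Figure D4:**
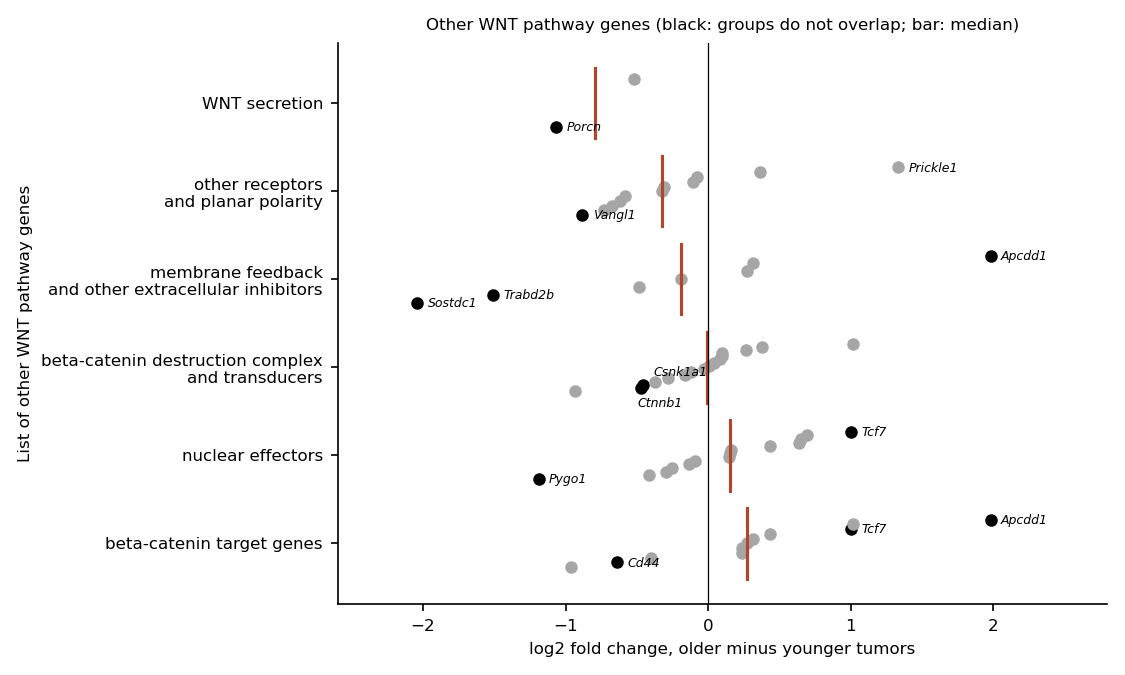
Log2 fold changes (older minus younger tumors) of the 55 tested genes of the other WNT pathway lists. Black points mark genes whose age groups do not overlap, among them Apcdd1 (1.98), Trabd2b (-1.51) and Sostdc1 (-2.04), red bars mark list medians, and genes in more than 1 list are drawn in each.

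Cell type markers differed between the tumors as well, and their part in the WNT results was not tested. The summed level of 7 luminal epithelial markers in the table was 1369 to 1454 CPM in older and 1767 to 2001 CPM in younger tumors, and Sfrp1 was lower in the older tumors as well. All 7 markers were lower in older tumors by sign. The age groups did not overlap for 3 of them (Epcam, Krt8 and Cldn4), 42.9% compared with 12.2% of all genes tested. They overlapped for Cdh1, Elf3, Cldn3 and Krt18, and Krt18 had a log2 fold change of -0.09. The 6 basal and myoepithelial markers summed to 426 (tumor 102), 2583 (tumor 107) and 718 CPM (tumor 116) in older tumors and to 1869 to 2658 CPM in younger ones. Both tumors with the highest Wnt5b and Rspo1, 102 and 116, thus had the lowest basal sums. Krt5, Krt17, Acta2, Myh11 and Cnn1 were lowest in these tumors. Oxtr was not, with 70.1 CPM in tumor 116 against 37.0 and 64.8 CPM in younger tumors 157 and 167. The 8 fibroblast markers summed to 1390.5, 160.2 and 624 CPM in older and 1084, 1041 and 142 CPM in younger tumors. The fibroblast and endothelial sums were highest in tumor 102, but not every marker was. Col1a1 and Fbln1 were highest in tumor 157, Col3a1 in tumor 158 and Lum in tumor 116. Of the endothelial markers, Vwf was highest in tumor 157, Cdh5 in tumor 158 and Kdr in tumor 107. The other markers of both lists were highest in tumor 102. Adipocyte markers summed to 188 CPM in tumor 102 and to 13.3 to 43.0 CPM in the other tumors. Tumor 102 thus held the highest adipocyte sum as well as the highest Axin2 and Lgr4. Most of that sum was Fabp4 (129 CPM), and Lep was highest in tumor 107. Macrophage markers summed to 169 to 307 CPM in older and 80.0 to 131 CPM in younger tumors, and all 6 were higher by sign. The age groups did not overlap for 3 of them (Cd68, Csf1r and Adgre1), 50% compared with 12.2% of all genes tested. They overlapped for Mrc1, Cd163 and C1qa, and C1qa was lower in tumor 102 (18.5 CPM) than in all younger tumors (20.6 to 25.3 CPM). T cell markers summed to 15.5, 83.2 and 19.4 CPM in older and 4.40 to 8.42 CPM in younger tumors. Tumor 107 was highest for Tcf7 and for the T cell sum, most of which was Cd8a there (72.0 CPM). Cd2 was also highest in tumor 107, whereas Cd3e, Cd3d and Cd3g were highest in tumor 116 (5.03, 1.35 and 2.90 CPM). Cd3d and Cd3g overlapped between the age groups. B and plasma cell markers summed to 4.39 to 21.3 CPM in older and 1.66 to 4.05 CPM in younger tumors, with Cd79b and Ms4a1 at 0 counts in every tumor. Most of this sum was Jchain, the joining chain of secreted antibodies, at 11.5, 3.73 and 20.3 CPM in older and 0.688, 2.99 and 0.475 CPM in younger tumors. The B cell receptor gene Cd79a, too low to be tested, went the other way. It was lower in all older tumors (0 to 0.774 CPM) than in all younger ones (1.06 to 1.20 CPM). Endothelial markers (105 to 397 CPM in older and 73.1 to 313 CPM in younger tumors) and skeletal muscle markers (5.81 to 52.4 and 15.9 to 24.8 CPM) overlapped between the age groups.

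**Figure D5:**
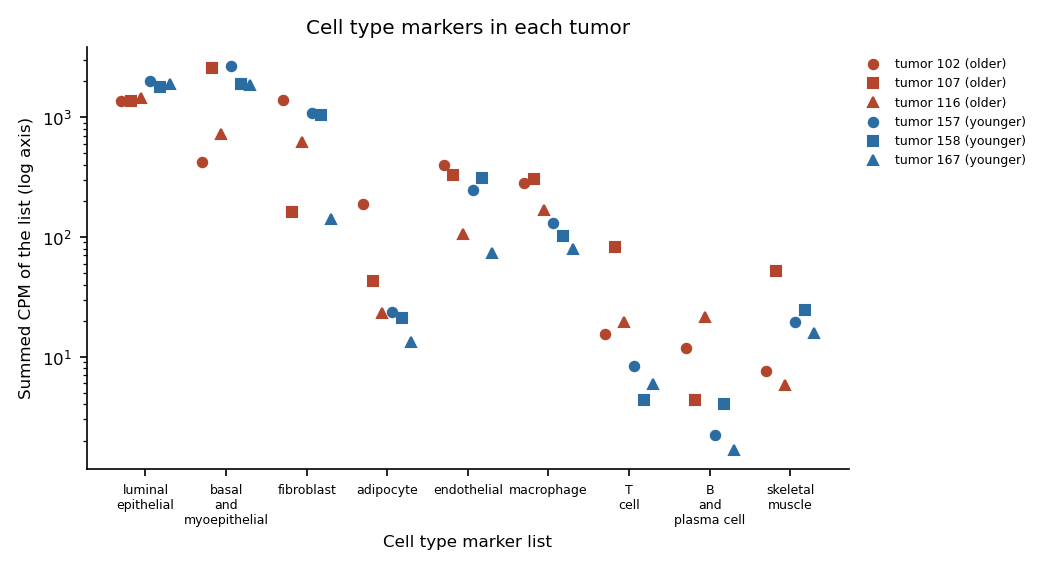
Summed CPM of 9 cell type marker lists in each tumor on a log axis, with older tumors in red and younger tumors in blue. The luminal sum is lower and the macrophage, T cell and B and plasma cell sums are higher in all older tumors. In each of these lists some single markers overlap between the age groups. The B and plasma cell sums barely separate (4.39 CPM in tumor 107, 4.05 CPM in tumor 158), and Cd79a runs the other way. Basal sums are lowest in tumors 102 and 116 and the adipocyte sum is highest in tumor 102.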

How the data were processed

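Rat mammary tumors were profiled by bulk RNA-seq. The authors depleted ribosomal RNA per the methods (the labels name polyA RNA), trimmed reads with Trimmomatic 0.38, aligned them with STAR 2.7.9a, marked duplicates with Picard 2.18.12 and counted reads per gene with HTSeq 0.13.5, and the deposited values are raw read counts without normalization. The submitters' processing notes name the build mRatBN7.2. The annotation release, the strand setting and the treatment of marked duplicates are not given in the sources used here, and without strand the reads of overlapping genes cannot be told apart. No column of the table was left unused (0 columns). Rows without a name, 4367 rows with 2.87% of the counts, are separate entries without a symbol and were kept; leaving them out is 1 of the alternatives.

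The tools were edgeR 4.0.16, DESeq2 1.42.0 and limma 3.58.1, run in R 4.3.3. The filter was filterByExpr, libraries were scaled by TMM, and age groups were tested by quasi-likelihood in edgeR, with no covariate; p was adjusted over all genes by the Benjamini-Hochberg method. Standard errors were derived from the F statistic, and log2 CPM used a prior count of 2. CPM is not divided by gene length, so that levels were compared only for the same gene. No 2 libraries agreed within sampling noise. Each tumor is 1 library, and p-values measure the spread between tumors. The statistics were tested on simulated counts. The members, gene lists and tests were chosen with earlier results of these data known. Values are given for each role's 3 members with the highest mean CPM and the 3 with the smallest p, for members with an unadjusted p under 0.05 or with age groups that do not overlap, and for Axin2 and Lgr5; other genes were singled out with their values known. Alternatives were other scalings, tests and filters, leaving out the 10 most abundant genes, a prior count of 0.5 and leaving out each tumor. Promoter sequences and gene overlaps were taken from RefSeq (GRCr8), in which all 48 symbols were found and 12 of them overlap another gene. Marker genes Krt14, Krt19, Trp63, Cd4, Myh1 and Mylpf were not analysed here.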

Additional observations from a re-analysis of the deposited data

How the results depend on the processing

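No paired analysis was possible because each tumor is from another rat and no number is shared between age groups. The count of members past the threshold was 0 and stayed 0 under limma-voom, scaling by library totals or DESeq2's size factors, both other filters, without the 10 most abundant genes and with each tumor left out. DESeq2's Wald test gave 2 members, 1 other pathway gene and 346 genes in all, and testing every gene with at least 1 count gave 1 gene in all, no member. Members at an unadjusted p under 0.05 numbered 3 to 6 of 27 to 29 tested with a tumor left out. In these refits 5.82% to 10.5% of all genes tested passed that threshold. Members whose age groups do not overlap were 3 of the 26 tested as reported. With every gene of at least 1 count they numbered 5 of 47 (Rspo1 and Wnt11 added), and 10.8% of all genes did not overlap there. They numbered 5 to 11 with a tumor left out: 5 without tumor 102, 6 without 107, 5 without 116, 7 without 157, 11 without 158 and 7 without 167. With 5 tumors groups overlap less often, and 17.8% to 26.8% of all genes tested did not overlap then. Of the refitted fold changes of the 16 named members tested, 217 kept their sign and their side of the threshold, and 2 (Wnt5b and Sfrp1, with DESeq2) kept their sign and passed it. Leaving out the rows without a gene symbol, chosen after seeing the data, tested 13139 genes and gave 0 members past the threshold and the same 3 members without overlap. At least 10 counts in every tumor left Wnt5b and Axin2 untested. The median over all genes moved by less than 0.1 under every scaling. Depth limits the 22 members that were not tested.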
